A study of Mus musculus with 18 samples.

Results

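The complement genes C1qa, C1qb, C1qc, C3, Cfb, Cfp, C3ar1 and C5ar1 were followed in mouse bone marrow-derived macrophages (BMDMs) that carried or lacked the prolyl endopeptidase gene Prep. The members were taken from the deposited count table by their symbols, and all 8 were found among its 16314 gene symbols. The 8 genes also passed the expression filter, which kept 12021 genes for testing. Bulk RNA-seq had been made from BMDMs of Prep-/- mice and of Prep+/- littermates on a C57BL6/J background. The controls were therefore heterozygous, and no wild-type group entered the comparison. Femoral marrow cells of both genotypes were grown with M-CSF at 50 ng/ml for 7 days. M0 cells then received no stimulus, M1 cells received LPS at 50 ng/ml for 24 h, and M2 cells received IL-4 and IL-13 at 20 ng/ml each for 24 h. Each of the 6 groups held 3 libraries, which the study calls biological replicates. Which mouse gave which library is not stated in the sources used here, nor is the age of the marrow donors, so that p-values measured only the spread between these libraries.

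Complement is a set of plasma and cell-surface proteins that tag microbes and dying cells, attract leukocytes and open membranes. C1q, built from the A, B and C chains, is the recognition protein of the classical pathway and is made largely by macrophages and related myeloid cells, whereas the liver supplies most other circulating components. All routes converge on C3. Factor B is the protease of the alternative pathway convertase, which turns C3 over in an amplification loop, and properdin stabilizes that convertase. The small fragments released from C3 and C5 signal to myeloid cells through the receptors encoded by C3ar1 and C5ar1.

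The targeted gene was checked first. Normalized counts, which are counts divided by the TMM-scaled library size and brought to the mean library, of Prep had means of 759, 632 and 820 in the Prep+/- M0, M1 and M2 groups and of 38.6, 47.1 and 59.9 in the Prep-/- groups. Total counts lay between 19068237 and 22598279 per library. CPM stands for counts scaled to the TMM-scaled library size, not to the library total. Of 10 macrophage markers, all 10 were counted. Their summed level was 10815 to 48859 CPM per library, most of it from the lysozyme gene Lyz2. Marker sums stayed at or below 2.64 CPM for dendritic cells and at or below 0.168 CPM for B cells, mast cells and erythroid cells. Stromal markers reached 20.2 CPM and varied within groups, at 0.369 CPM in Prep-/- M0 replicate 3 against 15.6 and 12.3 CPM in replicates 1 and 2, and at 14.0 CPM in Prep+/- M2 replicate 3 against 0.170 and 0.0839 CPM. A pair of libraries stood apart from their groups. The chi-square per degree of freedom between replicates was 110 and 117 for Prep-/- M0 replicate 3 and 108 and 109 for Prep-/- M2 replicate 3, and at most 48.1 for all other pairs. In Prep-/- M0 replicate 3, hepatocyte markers summed to 13.8 CPM, with 11.8 CPM of the albumin gene Alb, against at most 0.1 CPM in the other 17 libraries. Because these are bulk cultures, fewer cells of a type and less RNA per cell cannot be told apart.

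The first question was how loss of Prep changed complement mRNA in each state. In M0 cells, 6 of the 8 genes rose and 0 fell, by 0.72, 0.94 and 0.92 on the log2 scale for the C1q chains, 1.88 for C3, 1.81 for Cfb and 0.66 for Cfp. SE stands for the standard error of a log2 fold change. A gene was called when the adjusted p of edgeR's quasi-likelihood test was under 0.05 and the fold change over 1.5, and among all 12021 genes tested 15.4% were called higher and 17.2% lower in that comparison. In M1 cells, 0 of the 8 rose and 1 fell, C5ar1 with a log2 fold change of -1.17, against 12.3% higher and 10.2% lower over all genes. In M2 cells, 1 rose, C3 by 1.93, and 0 fell, against 6.37% and 9.82%. With the replicate number as a block, an alternative fit, C5ar1 was also called lower in M2. The 8 genes had a median log2 fold change of 0.82 in M0, against 0.018 over all genes tested. Their medians in M1 and M2 were 0.21 and 0.044, against 0.036 and 0.027. The plot of knockout effects by state shows the C1q chains, Cfp and Cfb as called in M0, C3 in M0 and M2, and C5ar1 below 0 in each state and called in M1.

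**Figure D1:**
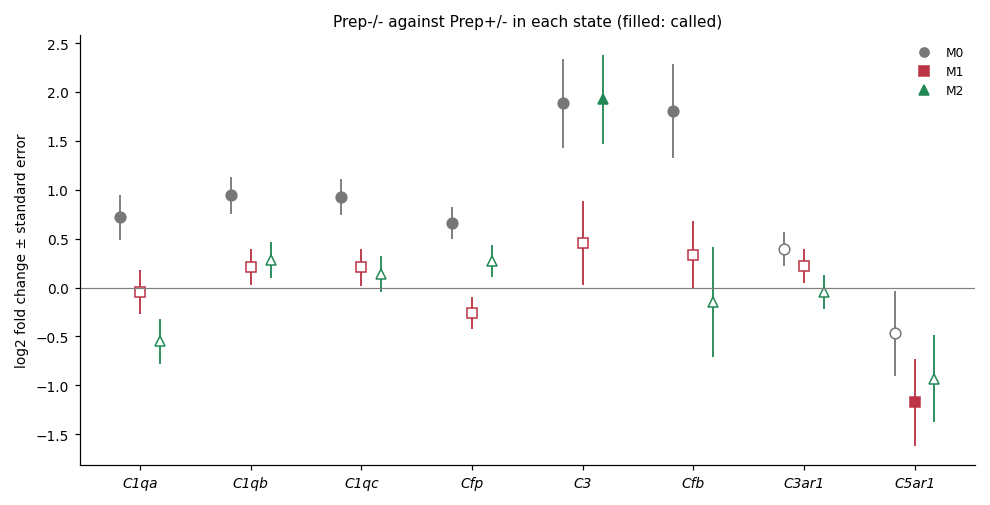
Log2 fold change of each complement gene between Prep-/- and Prep+/- BMDMs (y axis, points with ± 1 standard error from edgeR), for M0 (circles), M1 (squares) and M2 (triangles); filled points were called. C3 sits at 1.88 in M0 and 1.93 in M2 but at 0.45 in M1, and C5ar1 lies below 0 in all 3 states.

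Marker genes moved in the same M0 comparison, where 15.4% of all genes tested were called higher and 17.2% lower. Of the 10 macrophage markers, 6 were called higher and 0 lower in Prep-/- M0 cells, among them Csf1r (log2 fold change 1.39), the M-CSF receptor gene, and Adgre1 (1.22), and Cd68, Itgam and Spi1 were among those not called. The summed macrophage level was 30979 to 48859 CPM in Prep-/- and 19497 to 22923 CPM in Prep+/- M0 libraries, without overlap. Of the 6 neutrophil and granulocyte precursor markers tested, 5 were called higher and 0 lower, with a summed level over all 9 listed genes of 67.8 to 155.5 CPM against 31.9 to 43.8 CPM. Their defining surface marker Ly6g reached at most 0.142 CPM in any library. Cd4, the only T cell marker tested, lay at 7.84 to 29.6 CPM in Prep-/- M0 and at 0.75 to 0.962 CPM in Prep+/- M0 libraries, with Cd3d at 0 in all 3 Prep-/- M0 libraries. The part of these markers in the complement differences was not tested.

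The C1q chains were described first, as the recognition unit. All 3 genes are protein-coding and lie on the minus strand of chromosome 4 in GRCm39, C1qb at chr4:136606009-136613511, C1qc at chr4:136616466-136620376 and C1qa at chr4:136623223-136626161, so that the cluster spans 20153 bases. Gm69251, annotated on the opposite strand, overlaps C1qb and C1qc and shares 250 identical bases with the C1qc transcript. Its own counts were not analysed here, and how reads shared with C1qc were assigned is not stated in the sources used here. The library kit keeps strand, but whether counting used it is not stated in the sources used here. The promoters of C1qb and C1qc are printed because these neighbours had the most alike patterns of the 8 genes. Each run holds the 250 bases before the gene's start in RefSeq's promoter table of GRCm38.p6, 5′ to 3′ on the minus strand, at chr4:136886201-136886450 for C1qb and chr4:136892915-136893164 for C1qc, and capitals mark a match to the PU.1 motif GAGGAAGT or its reverse complement ACTTCCTC.
C1qb: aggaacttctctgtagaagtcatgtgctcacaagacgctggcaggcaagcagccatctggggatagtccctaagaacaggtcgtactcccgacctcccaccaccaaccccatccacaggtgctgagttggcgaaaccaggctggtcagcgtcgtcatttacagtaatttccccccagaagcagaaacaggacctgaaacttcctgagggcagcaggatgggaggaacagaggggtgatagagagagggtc
C1qc: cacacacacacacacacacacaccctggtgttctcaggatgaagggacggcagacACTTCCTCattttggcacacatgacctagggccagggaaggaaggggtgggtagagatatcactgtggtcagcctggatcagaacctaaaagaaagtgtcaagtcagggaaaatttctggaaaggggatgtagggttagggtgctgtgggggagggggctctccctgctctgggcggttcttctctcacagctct
The C1qc promoter held 1 PU.1 match, on the reverse strand and starting 195 bases before the gene's start, and the windows of C1qb, C3, C3ar1, C5ar1 and Cfp held none of these letters. Of 32536 distinct promoters of the same length, 2.45% held the motif on either strand. None of these 6 windows matched the interferon-stimulated response element ISRE, the NF-kB motif or the STAT6 motif in the forms searched, which 2.98%, 0.36% and 5.89% of the promoters held. ISRE was searched as GAAA, 2 free bases and GAAA, NF-kB as GGGA, 1 free base and TTTCC, and STAT6 as TTC, 4 free bases and GAA. These are matches of letters in a short window, and a match or its absence was not read as binding.

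**Figure D2:**
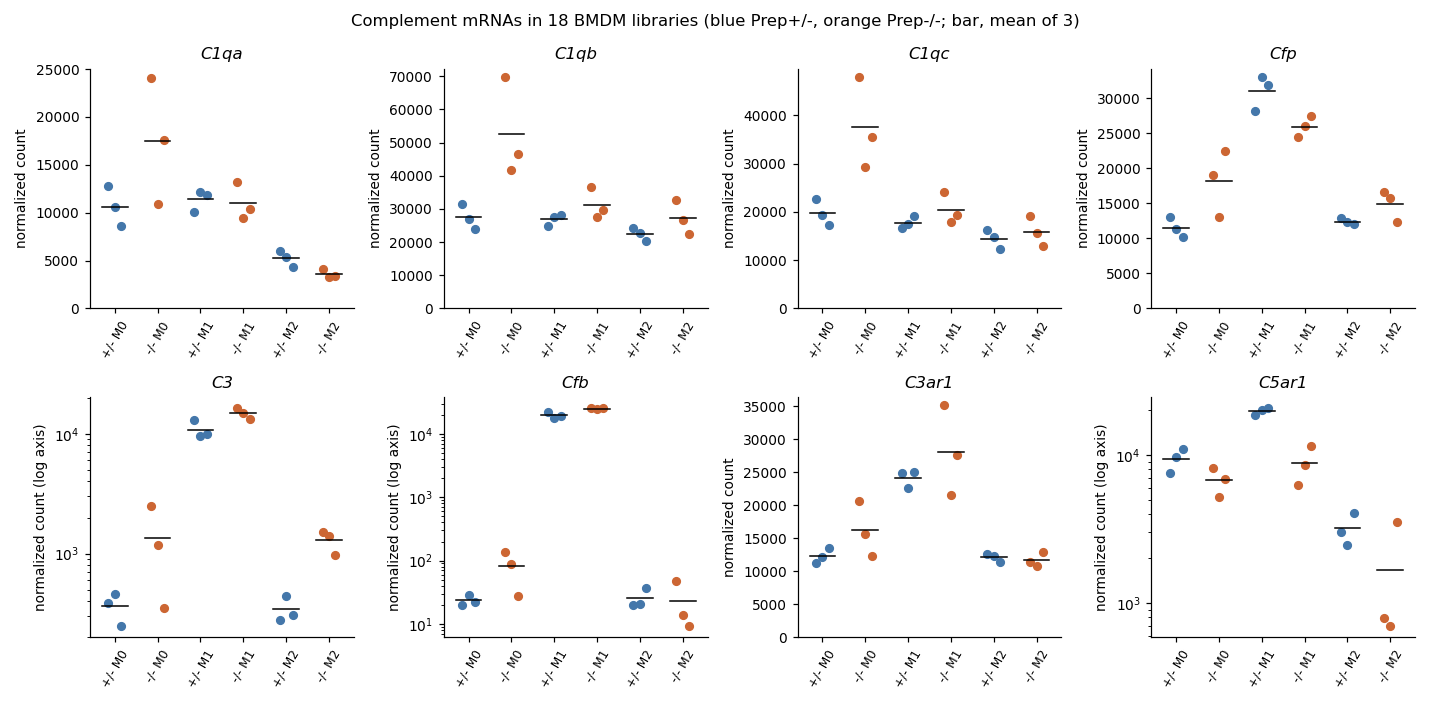
Normalized counts of the 8 complement genes in each of the 18 libraries (y axes, log scale for C3, Cfb and C5ar1), with Prep+/- in blue, Prep-/- in orange and the mean of 3 libraries as a bar. The 3 Prep-/- M0 libraries of C1qb and C1qc lie above all Prep+/- M0 libraries, and Cfb reaches 17727 or more in M1 but at most 135 elsewhere.

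C1qb, which encodes the B chain, had normalized counts of 31461, 26989 and 23808 in the Prep+/- M0 libraries, in the order of replicates 1 to 3, and of 69816, 41752 and 46541 in the Prep-/- M0 libraries. All Prep-/- libraries lay above all Prep+/- libraries, and replicate 1 was the highest of them. The means were 27419 ± 3845 and 52703 ± 15013 (SD, n = 3 each), and C1qb rose by 0.94 on the log2 scale (SE 0.19, adjusted p = 6.17e-04 by edgeR). For C1qc, the gene of the C chain, Prep+/- M0 libraries gave 22579.6, 19443 and 17306 and Prep-/- M0 libraries 47884, 29254 and 35487. The groups were again apart, with the same library highest, and C1qc rose by 0.92 (SE 0.19, adjusted p = 7.25e-04 by edgeR). Both calls held without that library, at 0.69 for C1qb and 0.71 for C1qc. Libraries of the genotypes were apart for 3 of the 8 genes in M0, C1qb, C1qc and Cfp, where 52.6% of all genes tested were apart.

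C1qa encodes the A chain, and its M0 libraries overlapped. The Prep+/- values were 12749.8, 10549.9 and 8611 and the Prep-/- values 24020.3, 10871 and 17619.6, so that Prep-/- replicate 2 fell inside the Prep+/- range. C1qa rose by 0.72 (SE 0.23, adjusted p = 0.0158 by edgeR), a call that was lost without Prep-/- M0 replicate 1, where the log2 fold change was 0.42 (adjusted p = 0.127 by edgeR). Leaving out Prep+/- M0 replicate 2 (0.69, edgeR adjusted p = 0.0512) or replicate 3 (0.57, edgeR adjusted p = 0.0846) also lost it, as did fitting only the compared libraries (0.71, edgeR adjusted p = 0.0776) and the replicate block on them (0.66, edgeR adjusted p = 0.0901), so that it was lost in 5 of 13 alternatives.

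In M1 cells no C1q chain was called between the genotypes, with log2 fold changes of -0.046 for C1qa, 0.21 for C1qb and 0.21 for C1qc and edgeR adjusted p-values of 0.889, 0.386 and 0.400. In M2 cells no chain was called either, and the log2 fold changes took different signs. C1qa stood at 6022, 5414 and 4312 in Prep+/- and at 4076, 3309.9 and 3384 in Prep-/- M2 libraries. Every Prep-/- library was below every Prep+/- library, but the log2 fold change of -0.55 (SE 0.23) did not pass the test (adjusted p = 0.0904 by edgeR). Of the members, only C1qa and C3 had genotypes apart in M2, where 42.1% of all genes tested were apart. C1qb gave 24344, 22617 and 20379 in Prep+/- and 32691, 26757 and 22454 in Prep-/- M2 cells, with overlap, and a log2 fold change of 0.28 (adjusted p = 0.288 by edgeR). C1qc gave 0.14 (adjusted p = 0.636 by edgeR), and -0.030 without Prep-/- M2 replicate 1.

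The chain mRNAs were then compared with one another per length, as normalized counts per kilobase of the annotated main transcript. In Prep+/- M0 cells they lay within each other's spread, at 9786 ± 1905 for C1qa, 10829 ± 1519 for C1qb and 10678 ± 1432 for C1qc (SD, n = 3 each). In Prep-/- M2 cells the levels per kilobase were 3303 ± 389, 10782 ± 2030.1 and 8580.0 ± 1730.4, so that C1qa was well below its partners. Because a ratio of counts within a library does not depend on library scaling, the ratios between chains were also formed, a step chosen after the values had been seen. The ratio of C1qa to C1qb counts averaged 0.386 ± 0.0222 in Prep+/- M0, 0.422 ± 0.0183 in Prep+/- M1 and 0.233 ± 0.0188 in Prep+/- M2 cells. In the Prep-/- groups it was 0.328 ± 0.0608, 0.353 ± 0.00885 and 0.133 ± 0.0153 (SD, n = 3 each). The M2 genotypes were apart, from 0.212 to 0.247 in Prep+/- and from 0.124 to 0.151 in Prep-/- libraries, a log2 difference of -0.81 (two-sided exact permutation p = 0.1, the smallest that 3 against 3 libraries allow). The ratio of C1qb to C1qc stayed between 1.31 and 1.75 in all 18 libraries. Of the 21 tests of ratios between groups, none could go below that p.

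**Figure D3:**
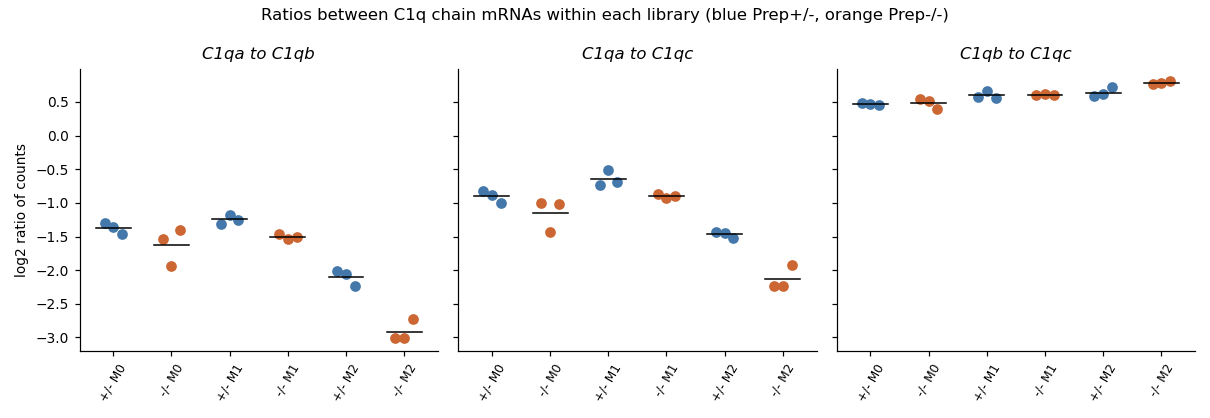
Log2 ratio of counts between pairs of C1q chain genes in each of the 18 libraries (y axis shared by the 3 panels), with Prep+/- in blue, Prep-/- in orange and group means as bars. The ratios of C1qa to C1qb and to C1qc are lowest in the Prep-/- M2 libraries, with means of -2.92 and -2.13, while C1qb to C1qc stays between 0.47 and 0.78 in every group mean.

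The alternative pathway genes C3 and Cfb followed. C3 lies on the minus strand at chr17:57510964-57535155. Gm65552, annotated on the opposite strand, overlaps C3 and shares 158 identical bases with its transcript. How such shared reads were assigned is not stated in the sources used here. C3 stood at 389, 458 and 246 normalized counts in Prep+/- M0 and at 2516, 1171 and 349 in Prep-/- M0 libraries. Replicates 1 and 2 of Prep-/- lay above the Prep+/- range and replicate 3, the library with albumin mRNA, lay inside it. C3 rose by 1.88 (SE 0.45, adjusted p = 0.00272 by edgeR), and by 2.32 without replicate 3 and 1.06 without replicate 1. In M2, Prep+/- cells gave 279, 439 and 309 and Prep-/- cells 1509.7, 1413 and 981. The M2 groups were apart, as were those of 42.1% of all genes tested. C3 rose by 1.93 (SE 0.46, adjusted p = 0.00547 by edgeR), a call that held in all 13 alternatives at 1.80 to 2.12. In M1 the Prep-/- values of 16329, 14895 and 13419 also lay above the Prep+/- values of 13037, 9580.4 and 9958, but the log2 fold change of 0.45 (SE 0.43) was not called (adjusted p = 0.423 by edgeR). The summed macrophage markers in M2 were 14686 to 20421 CPM in Prep-/- and 10815 to 12963 CPM in Prep+/- libraries. Of the 10 markers, 2 were called higher and 0 lower, against 6.37% and 9.82% of all genes tested. The part of these markers in the M2 difference of C3 was not tested.

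Cfb encodes factor B, the protease of the alternative pathway convertase. It lies at chr17:35074852-35081559 on the minus strand, inside the readthrough gene Gm20547, with which its transcript shares 1894 identical bases, and it overlaps Nelfe on the opposite strand, so its counts carry the uncertainty of how shared reads were assigned. Unstimulated cells held little of it, 20.3, 28.4 and 22.1 in Prep+/- and 135, 87.7 and 27.3 in Prep-/- M0 libraries. As with C3, replicates 1 and 2 of Prep-/- were above the Prep+/- range and replicate 3 was inside it. Cfb rose by 1.81 (SE 0.48, adjusted p = 0.00550 by edgeR), and by 2.21 without replicate 3 and 1.29 without replicate 1. Under LPS the Prep-/- libraries gave 25241, 24588 and 25171 and the Prep+/- libraries 22331, 17727 and 19373. They were apart, yet the log2 fold change of 0.34 was not called (adjusted p = 0.466 by edgeR). In M2, Cfb was at 9.13 to 46.8 normalized counts in both genotypes together, with a log2 fold change of -0.15 (adjusted p = 0.885 by edgeR).

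Cfp encodes properdin, the stabilizer of that convertase, and lies at chrX:20791688-20797794 on the minus strand. Gm61816, annotated on the opposite strand, overlaps Cfp and shares a stretch of 118 bases with its transcript at 95.8% identity. How shared reads were assigned is not known for Cfp either. In M0, Prep+/- libraries gave 13053, 11276 and 10218 and Prep-/- libraries 19084, 13120.0 and 22526. The groups were apart, but the lowest Prep-/- library lay just above the highest Prep+/- library. Cfp rose by 0.66 (SE 0.16, adjusted p = 0.00334 by edgeR), and it dropped below the fold criterion without Prep-/- M0 replicate 3, at 0.47, or without Prep+/- M0 replicate 3, at 0.57. With the replicate block on the compared libraries the call was also lost (0.63, adjusted p = 0.0884 by edgeR). In M1 the order turned, with 28217, 33115 and 31892 in Prep+/- and 24419, 26097 and 27415 in Prep-/- libraries. Every Prep-/- M1 library was below every Prep+/- M1 library, at a log2 fold change of -0.26 that was not called (SE 0.16, adjusted p = 0.226 by edgeR). In M2 the log2 fold change was 0.27 (adjusted p = 0.248 by edgeR).

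The receptors for the fragments of C3 and C5 differed from each other. C5ar1, at chr7:15980668-15993465, fell in Prep-/- M1 cells, where the libraries gave 6226, 8582 and 11539 against 18567, 20223 and 20634 in Prep+/- M1 cells. The groups were far apart, with means of 8782 ± 2662 and 19808 ± 1094 (SD, n = 3 each). C5ar1 changed by a log2 fold change of -1.17 (SE 0.44, adjusted p = 0.0479 by edgeR), close to the threshold, and the call was lost in 6 of 13 alternatives, with an adjusted p of 0.0501 by DESeq2 and of up to 0.168 when Prep-/- M1 replicate 1 was left out. Libraries were apart for 4 of the 8 genes in M1, higher for C3 and Cfb and lower for C5ar1 and Cfp, where 56.9% of all genes were apart. Summed macrophage markers were 31874 to 37763 CPM in Prep-/- and 46623 to 48047 CPM in Prep+/- M1 libraries, but without Lyz2 they were 11482 to 11666 and 11420 to 12913 CPM, with overlap, and 1 of 10 was called higher and 1 lower. Neutrophil and granulocyte precursor markers summed to 51.4 to 71.4 CPM in Prep-/- and 79.1 to 145.3 CPM in Prep+/- M1 libraries, without overlap, and of the 6 tested 2 were called lower, Camp (log2 fold change -1.54) and S100a8 (-1.19), and 0 higher. Over all genes tested, 12.3% were called higher and 10.2% lower in M1. The part of the marker genes in the C5ar1 difference was not tested.

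C5ar1 in M2 turned on Prep-/- replicate 3, the M2 library that stood apart from its group. Prep+/- M2 cells gave 3026, 2476 and 4065 and Prep-/- M2 cells 788, 695 and 3528. Replicates 1 and 2 of Prep-/- lay below the whole Prep+/- range and replicate 3 inside it. The log2 fold change was -0.93 (SE 0.44, adjusted p = 0.138 by edgeR), not called, whereas it was -2.09 (adjusted p = 3.23e-05 by edgeR) without Prep-/- M2 replicate 3. With the replicate number as a block, it was -1.12 (adjusted p = 0.0382 by edgeR) and was called. In M0 the log2 fold change was -0.47 (adjusted p = 0.397 by edgeR), from 7545, 9655 and 10887 in Prep+/- and 8174, 5222 and 6910.3 in Prep-/- libraries, which overlapped.

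C3ar1, at chr6:122823393-122833122 on the minus strand, was not called between the genotypes in any state. Its M0 libraries gave 11237, 12225 and 13493 in Prep+/- and 20611, 15654 and 12284 in Prep-/- cells, with overlap, and a log2 fold change of 0.39 (SE 0.18, adjusted p = 0.0738 by edgeR). The values in M1 and M2 were 0.22 and -0.048, with edgeR adjusted p-values of 0.345 and 0.878.

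The second question was how each genotype responded to the stimuli. In Prep+/- cells, LPS raised 5 of the 8 genes and lowered 0, against 16.7% higher and 20.9% lower over all genes tested. IL-4 with IL-13 raised 0 and lowered 2 in Prep+/- cells, against 6.09% and 6.77%. In Prep-/- cells, LPS raised 3 and lowered 3, against 20.9% and 21.0%, and IL-4 with IL-13 raised 0 and lowered 5, against 14.7% and 15.5%. The responses of a genotype to both stimuli share the same M0 libraries, so the M0 values of Prep-/- cells enter every Prep-/- response.

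**Figure D4:**
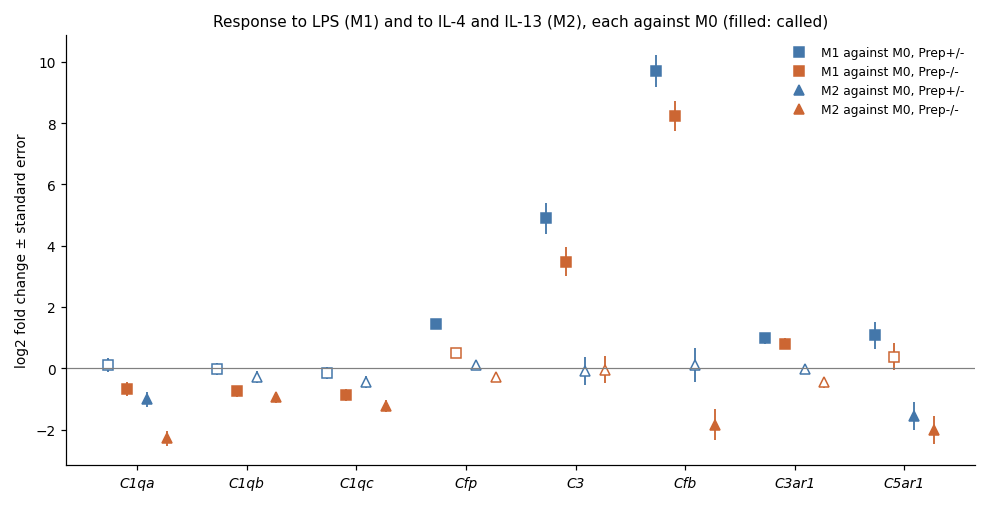
Log2 fold change of each complement gene in M1 (squares) and M2 (triangles) against M0 of the same genotype (y axis, ± 1 standard error from edgeR), with Prep+/- in blue and Prep-/- in orange; filled points were called. Cfb and C3 stand highest in M1 in both genotypes, and C1qa is lowest in Prep-/- M2 at -2.29.

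Cfb and C3 had the largest log2 rises of the members under LPS in both genotypes. Cfb went from a mean of 23.6 ± 4.28 in Prep+/- M0 to 19810.2 ± 2333 in Prep+/- M1 cells and from 83.2 ± 53.7 to 25000.0 ± 358 in Prep-/- cells (SD, n = 3 each). It rose by 9.70 (SE 0.53, adjusted p = 6.55e-10 by edgeR) and 8.23 (SE 0.48, adjusted p = 1.20e-09 by edgeR) on the log2 scale. C3 rose by 4.90 in Prep+/- cells (SE 0.51, adjusted p = 5.62e-07 by edgeR) and by 3.47 in Prep-/- cells (SE 0.47, adjusted p = 1.10e-05 by edgeR). The call for both genes held in all 13 alternatives in each genotype, although the Prep-/- value of C3 was 4.29 without Prep-/- M0 replicate 1 and 2.99 without replicate 3.

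Cfp rose under LPS in Prep+/- cells by 1.43 (SE 0.17, adjusted p = 2.05e-06 by edgeR), from a mean of 11515 ± 1433 to 31075 ± 2549. In Prep-/- cells its value was 0.51, below the fold criterion (adjusted p = 0.0140 by edgeR). C3ar1 rose by 0.97 in Prep+/- cells (adjusted p = 2.03e-04 by edgeR) and by 0.80 in Prep-/- cells (adjusted p = 0.00103 by edgeR), where the call was lost without Prep-/- M1 replicate 1, at 0.57. C5ar1 rose by 1.08 in Prep+/- cells, at the edge of the threshold (adjusted p = 0.0498 by edgeR), and the call was lost when any 1 of the 6 libraries compared was left out, at 0.92 to 1.22. Its value in Prep-/- cells was 0.38 (adjusted p = 0.482 by edgeR). The macrophage marker sums were also higher in Prep+/- M1 than in Prep+/- M0 libraries, 46623 to 48047 against 19497 to 22923 CPM, and their part in these responses was not tested.

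The C1q chains did not share the rise. In Prep+/- cells their log2 fold changes under LPS were 0.097, -0.026 and -0.16 for the A, B and C chains, none called, with edgeR adjusted p-values of 0.740, 0.918 and 0.499. In Prep-/- cells all 3 fell under LPS, with log2 fold changes of -0.67 for C1qa (SE 0.23, adjusted p = 0.0194 by edgeR), -0.76 for C1qb (SE 0.19, adjusted p = 0.00237 by edgeR) and -0.88 for C1qc (SE 0.19, adjusted p = 7.63e-04 by edgeR). The means they reached in Prep-/- M1 cells, 11020.2 ± 1955, 31187 ± 4749 and 20457 ± 3190.3, were near those of Prep+/- M1 cells, 11380.1 ± 1145, 26934 ± 1770.0 and 17737 ± 1246 (SD, n = 3 each). Without Prep-/- M0 replicate 1, these log2 fold changes were -0.37 for C1qa and -0.50 for C1qb, neither called, and -0.66 for C1qc, still called.

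Under IL-4 and IL-13, C1qa fell in both genotypes, with log2 fold changes of -1.02 in Prep+/- (SE 0.23, adjusted p = 0.00457 by edgeR) and -2.29 in Prep-/- cells (SE 0.24, adjusted p = 1.18e-06 by edgeR). C1qb and C1qc fell in Prep-/- cells, with log2 fold changes of -0.95 (adjusted p = 6.13e-04 by edgeR) and -1.24 (adjusted p = 6.04e-05 by edgeR), and gave -0.29 and -0.45 in Prep+/- cells, neither called. C5ar1 also fell in both genotypes, to log2 fold changes of -1.55 in Prep+/- cells (SE 0.45, adjusted p = 0.0220 by edgeR) and -2.02 in Prep-/- cells (SE 0.46, adjusted p = 0.00187 by edgeR). The Prep+/- call was lost without Prep+/- M0 replicate 2 or 3 or Prep+/- M2 replicate 1 or 2, with adjusted p-values up to 0.0923. The Prep-/- value was -3.20 without Prep-/- M2 replicate 3 and -1.68 without replicate 2. Cfb fell in Prep-/- cells (log2 fold change -1.84, edgeR adjusted p = 0.00655), although the libraries overlapped, and this call was lost when only the compared libraries were fitted (adjusted p = 0.103 by edgeR). Without Prep-/- M2 replicate 1 it was -2.88 and without Prep-/- M0 replicate 1 it was -1.33. C3 gave -0.089 in Prep+/- and -0.047 in Prep-/- cells, neither called. Summed macrophage markers were also lower in M2 than in M0, at 10815 to 12963 against 19497 to 22923 CPM in Prep+/- and at 14686 to 20421 against 30979 to 48859 CPM in Prep-/- libraries. Without Lyz2 the M2 and M0 sums overlapped in both genotypes, and the part of these markers in the M2 responses was not tested.

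Whether the knockout effect itself differed between states was tested as an interaction. Against M0, the effect in M1 was lower for 1 of the 8 genes, Cfp, and higher for 0, where 12.0% of all genes tested were higher and 9.15% lower. The Cfp difference was -0.92 on the log2 scale (SE 0.23, adjusted p = 0.00928 by edgeR), from an effect of 0.66 in M0 to -0.26 in M1. C1qb, C1qc, C3 and Cfb had differences of -0.73, -0.72, -1.43 and -1.47 with edgeR adjusted p-values of 0.0513, 0.0551, 0.101 and 0.0808, and were not called. C1qb and C1qc were each called in 9 of 19 alternatives, the replicate block on all libraries among them (adjusted p = 0.0178 and 0.0184 by edgeR). Without Prep-/- M0 replicate 3, C3 and Cfb were both called, at -1.88 for each, and without replicate 1 they gave -0.61 and -0.96. C1qa gave -0.76 (adjusted p = 0.0922 by edgeR). Against M0, the effect in M2 was lower for 1 gene, C1qa, and higher for 0, where 4.53% and 4.13% of all genes were higher and lower. The C1qa difference was -1.27 (SE 0.32, adjusted p = 0.0221 by edgeR), from 0.72 in M0 to -0.55 in M2. C1qc and C1qb gave -0.79 (adjusted p = 0.0680 by edgeR) and -0.66 (adjusted p = 0.123 by edgeR), and C3 gave 0.041 (adjusted p = 0.978 by edgeR). C1qc was called in 5 of 19 alternatives, the replicate block among them (adjusted p = 0.0264 by edgeR on all libraries). Cfb had the most negative of the M2 differences, -1.95 (adjusted p = 0.109 by edgeR), and was called without Prep-/- M0 replicate 3, at -2.35, and without Prep-/- M2 replicate 1, at -2.97. For C5ar1 neither difference was called, at -0.71 for M1 and -0.46 for M2, but the M2 difference was -1.63 (adjusted p = 0.00809 by edgeR) and called without Prep-/- M2 replicate 3.

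Over all 6 groups, Cfb spanned the widest range, with its highest mean 1076 times its lowest, followed by C3 at 43.5, C5ar1 at 11.9, C1qa at 4.88, Cfp at 2.70, C1qc at 2.60, C3ar1 at 2.40 and C1qb at 2.35. C3, Cfb and C3ar1 were highest in Prep-/- M1, C5ar1 and Cfp in Prep+/- M1, and the C1q chains in Prep-/- M0 cells. In that order of means, the libraries of the leading group were apart from those of the next for C1qb, C1qc, C3, C5ar1, Cfb and Cfp, and overlapped for C1qa and C3ar1. For C3, Cfb and Cfp that pair was the genotypes in M1, where 56.9% of all genes tested were apart. For C1qb and C1qc it was M1 against M0 in Prep-/- cells (58.5%), and for C5ar1 M1 against M0 in Prep+/- cells (65.2%). At the other end, C1qa and C5ar1 were lowest in Prep-/- M2 cells, where the C1qa libraries were apart from those of Prep+/- M2 and the C5ar1 libraries overlapped them. Per kilobase, Prep+/- M0 cells held 7017 ± 873 of Cfp, 3683 ± 665 of C5ar1, 2458 ± 226 of C3ar1, 70.6 ± 20.9 of C3 and 7.04 ± 1.28 of Cfb, below the C1q chains given above. In Prep+/- M1 cells the order was 18936 ± 1554 for Cfp, 10637 ± 699 for C1qb, 10469 ± 1054 for C1qa, 9577 ± 673 for C1qc, 7792 ± 431 for C5ar1, 5921 ± 697 for Cfb, 4827 ± 262 for C3ar1 and 2105 ± 368 for C3 (SD, n = 3 each), with the 3 C1q chains within each other's spread.

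The patterns most like each gene were then listed as a description, by the root mean square difference of log2 CPM centred on each gene's own mean over the 18 libraries. All genes of a library share its depth and scaling. C1qb and C1qc were each other's nearest of all genes tested, at 0.113. Scarb2 was next to both, at 0.132 from C1qb and 0.178 from C1qc, followed by Adipor1 for C1qb (0.172) and Ing2 for C1qc (0.184). C1qa stood farther from its partners, at 0.582 from C1qb and 0.502 from C1qc, and Trp53i13 (0.324) and Cyp4f16 (0.332) were among its nearest genes. Cfb was nearest to Ccl5 (0.424), Lcn2 (0.556) and Slfn4 (0.836), and C3 to Mefv (0.541), Pfkfb3 (0.567) and Il18bp (0.598). The nearest of Cfp were Tmem134 (0.143), Guca1a (0.147) and Dhrs1 (0.154), those of C3ar1 were Tor1aip1 (0.131), Rnf34 (0.172) and Fez2 (0.178), and those of C5ar1 were Neurl1a (0.478), Gm16867 (0.512) and Nlrp3 (0.572).

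The rest of the complement system was covered by a list of 47 further genes, of which 20 passed the expression filter. Between the genotypes, 2 of the 20 (10%) rose and 5 (25%) fell in M0, against 15.4% and 17.2% of all genes tested. In M1, 1 (5%) rose and 4 (20%) fell, against 12.3% and 10.2%, and in M2 0 rose and 3 (15%) fell, against 6.37% and 9.82%. C8g, for the gamma chain of C8, rose by 1.37 in M0 (adjusted p = 0.0189 by edgeR) and by 2.06 in M1 (adjusted p = 0.0147 by edgeR), and C4b rose by 1.64 in M0 (adjusted p = 0.0459 by edgeR). Both were scarce, with no library above 64.5 normalized counts for C8g or 20.1 for C4b.

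Vsig4, a macrophage receptor for C3 fragments, was the only listed gene called lower in all 3 states. Its log2 fold changes were -2.28, -2.05 and -2.82 in M0, M1 and M2, with edgeR adjusted p-values of 5.66e-04, 0.00916 and 0.00110. Its M0 libraries held 73.3, 53.5 and 56.0 normalized counts in Prep+/- and 12.1, 8.86 and 16.6 in Prep-/- cells. The groups were apart at this low level, as were those of 52.6% of all genes tested in M0. Among proteins that bind C1q, Calr, the gene of calreticulin, fell in M0 and M1, with log2 fold changes of -1.27 and -0.75 and edgeR adjusted p-values of 3.27e-06 and 7.15e-04. Prep+/- M0 libraries gave 29907, 29161 and 28831 for Calr and Prep-/- M0 libraries 11607, 10813 and 14138. C1qbp fell in the same states, with log2 fold changes of -0.91 and -0.88 (edgeR adjusted p = 4.40e-04 and 0.00137). Lrp1, the endocytic receptor that pairs with calreticulin, fell in M0 and M2, with log2 fold changes of -1.34 and -0.61 (edgeR adjusted p = 6.36e-06 and 0.00824). In M1 it gave -0.41 (adjusted p = 0.0430 by edgeR), below the fold criterion.

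Of the membrane regulators, Cd59a, the inhibitor of the membrane pore, fell in M0 and M2, with log2 fold changes of -0.60 and -0.83 (edgeR adjusted p = 0.00681 and 0.00213). Its M1 value was -0.55 (adjusted p = 0.0172 by edgeR), below the fold criterion. Cd55, which speeds the decay of convertases, fell in M1 (log2 fold change -1.37, edgeR adjusted p = 0.00489), where the libraries gave 406, 372 and 413 in Prep+/- and 116, 187 and 159 in Prep-/- cells. In the responses to LPS, 7 of the 20 (35%) rose and 7 (35%) fell in Prep+/- cells, against 16.7% and 20.9% of all genes tested, and 7 (35%) rose and 5 (25%) fell in Prep-/- cells, against 20.9% and 21.0%. Under IL-4 and IL-13, 1 (5%) rose and 4 (20%) fell in Prep+/- cells, against 6.09% and 6.77%, and 4 (20%) rose and 5 (25%) fell in Prep-/- cells, against 14.7% and 15.5%. The knockout effect differed from that in M0 for 2 genes (10%) in M1, both higher, against 12.0% higher over all genes, and for 3 (15%) in M2, all higher, against 4.53%. Below the filter were C1rb, C1s2, Masp1, Masp2, Fcnb, Colec11, Hc, C8a, C9, Cfi, C4bp, Cd46, Cd55b, Serping1, Clu, Vtn, Cpn1, Cpn2 and Cr2, and the other 8 listed genes, C4a, Mbl1, Mbl2, Colec10, Cfd, C6, C7 and C8b, were not analysed here.

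**Figure D5:**
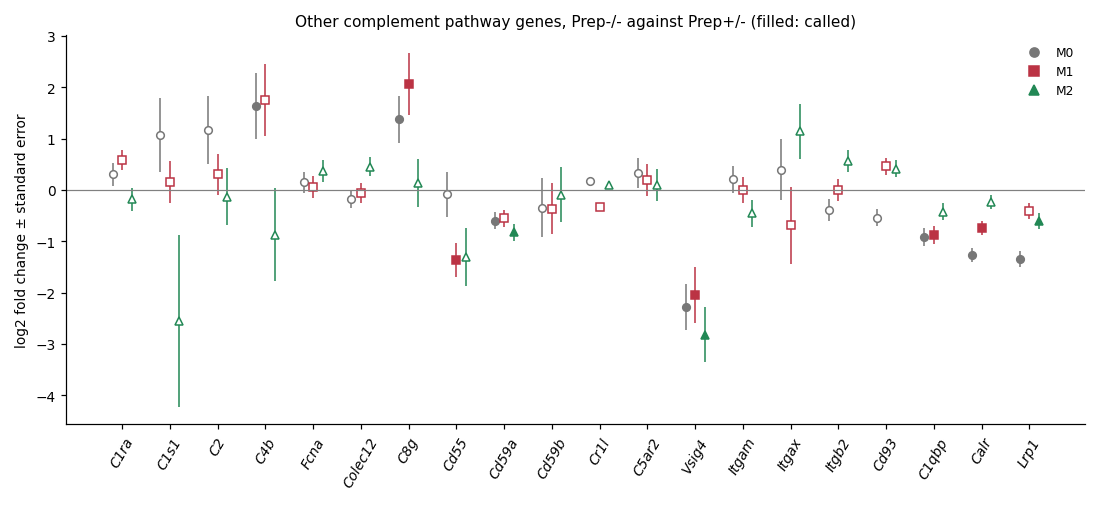
Log2 fold change between Prep-/- and Prep+/- BMDMs (y axis, ± 1 standard error from edgeR) for the 20 other complement genes that passed the filter, in M0 (circles), M1 (squares) and M2 (triangles); filled points were called. Vsig4 lies between -2.05 and -2.82 and is called in all 3 states, and C8g is called higher in M0 and M1.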

How the data were processed

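Bulk RNA-seq of BMDMs in 6 groups of 3 libraries was analysed from the count table the authors deposited. Per the labels and the study's methods, reads were trimmed with Trimmomatic 0.36, aligned to GRCm39 with HISAT2 2.2.1.0 and counted per gene after assembly with stringtie2, and the deposited values are whole-number counts without normalization. Each column matched 1 sample, and 0 sample columns were left out. Total counts lay between 19068237 and 22598279 per library, and replicates differed by more than sampling noise in every group.

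Genes were filtered with filterByExpr on the 6 groups, scaled by TMM and tested with the quasi-likelihood test of edgeR 4.0.16 (limma 3.58.1, R 4.3.3) on all 18 libraries with 1 coefficient per group. P-values were adjusted by Benjamini-Hochberg over the 12021 genes tested, in each of 9 comparisons. The standard error was derived from the log2 fold change and its F statistic. CPM for marker sums and likeness used a prior count of 2 on the log scale only. The fit was tested on simulated data. Ratios of C1q counts were compared by exact permutation with scipy 1.17.1 in Python 3.11.15.

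All members, the targeted gene, the listed pathway genes called in at least 1 knockout comparison and the 3 genes most like each member were named. Some genes that this rule or the lists held are not reported here. The members and lists were chosen with earlier results of these data known. Positions came from a GENCODE annotation of GRCm39 (the authors' release is not given in the sources used here), promoters from RefSeq's table of GRCm38.p6, which held 6 of the 8 members, and shared transcript stretches from blastn 2.17.0. Figures were drawn with matplotlib 3.10.9.

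Replicate numbers are shared between groups. Deviations from group means correlated between equal numbers at 0.249, 0.255 and 0.462 for the genotypes in M2. For M1 against M0 in Prep-/- cells the values were 0.201, 0.169 and 0.259. The other comparisons did not share this. The genotypes gave -0.107, -0.0393 and -0.315 in M0 and 0.101, 0.0097 and 0.0689 in M1. M1 against M0 in Prep+/- cells gave -0.269, 0.0799 and -0.0595. M2 against M0 gave 0.245, -0.0758 and 0.137 in Prep+/- and 0.0598, 0.176 and 0.00963 in Prep-/- cells. No label says what a number marks, so the main fit held no block. The replicate block was run as an alternative for every comparison. Alternatives were DESeq2 1.42.0, other size factors, other low-count filters, no fold minimum, only the compared libraries, the replicate block, and leaving out each library.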

Additional observations from a re-analysis of the deposited data

Results flagged for a closer look

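For Cfp, the properdin gene, the Prep-/- effect differed between M1 and M0 by -0.92 on the log2 scale (standard error 0.23, edgeR adjusted p = 0.00928). Cfp was flagged because the knockout effect differed between states in the interaction test. All 3 Prep-/- libraries lay above the Prep+/- libraries in M0 and all 3 lay below them in M1. Over all genes tested, the genotypes were apart for 52.6% in M0 and 56.9% in M1. The difference stayed called in all 19 alternatives, at -1.13 to -0.74 and adjusted p-values of 0.00107 to 0.0321.

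For C1qa, the gene of the C1q A chain, the Prep-/- effect differed between M2 and M0 by -1.27 (standard error 0.32, edgeR adjusted p = 0.0221). It met the same criterion. In M2 all 3 Prep-/- libraries lay below the Prep+/- libraries, where 42.1% of all genes tested were apart. In M0 the libraries overlapped with a higher Prep-/- mean. The call held in 14 of 19 alternatives, at -1.51 to -0.97 and adjusted p-values of 0.00309 to 0.0679, and it was lost without Prep-/- M0 replicate 1 (-0.97), without Prep+/- M0 replicate 2 (-1.26) or 3 (-1.14), without Prep+/- M2 replicate 1 (-1.15) and when only the compared libraries were fitted (-1.29).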

How the results depend on the processing

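Of the alternatives run for the single genes, 935 left the direction and the call as they were, 37 lost a call, 35 gained one and 25 turned a sign. The calls of C1qb, C1qc, C3 and Cfb between the genotypes in M0, of C3 in M2, and of C3, Cfb, C3ar1 and Cfp under LPS in Prep+/- cells held in all 13 alternatives each. The cause of the changes below was not tested.

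With the replicate block, on all libraries or on the compared ones, 2 members instead of 1 were called between the genotypes in M2, C5ar1 beside C3, 3 instead of 1 for the M1 interaction, and 2 instead of 1 for the M2 interaction. On the compared libraries the block left 4 instead of 6 called between the genotypes in M0, without C1qa and Cfp. For M1 against M0 in Prep-/- cells, where equal replicate numbers also correlated, the same 6 members were called with the block. DESeq2 called 0 members instead of 1 between the genotypes in M1, 3 for the M1 interaction and 2 for the M2 interaction. The M1 interaction also reached 3 with DESeq2-type size factors, with upper quartile scaling and with only the compared libraries, and the M2 interaction fell to 0 with only the compared libraries.

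Leaving out 1 library at a time gave 4 to 6 members called between the genotypes in M0, 0 to 1 in M1, 1 to 2 in M2, 4 in every case for M1 against M0 in Prep+/- cells, 1 to 2 for M2 against M0 in Prep+/- cells, 4 to 7 for M1 against M0 in Prep-/- cells, 5 to 6 for M2 against M0 in Prep-/- cells, 1 to 4 for the M1 interaction and 0 to 3 for the M2 interaction.

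The signs that turned all belonged to values that were not called. For M1 against M0 in Prep+/- cells, C1qa gave -0.023 with upper quartile scaling and -0.020 to 0.22 with 1 library left out, and C1qb gave -0.10 to 0.059. For M2 against M0 in Prep-/- cells, C3 gave 0.0998 and 0.32 with the replicate block on all and on compared libraries, and -0.50 to 0.77 with 1 library left out, where the highest value came without Prep-/- M0 replicate 1. With 1 library left out, M2 against M0 in Prep+/- cells gave -0.31 to 0.10 for C3, -0.10 to 0.046 for C3ar1 and -0.26 to 0.26 for Cfb. The genotypes gave -0.21 to 0.041 for C1qa in M1, and in M2 they gave -0.030 to 0.28 for C1qc, -0.11 to 0.0095 for C3ar1 and -1.16 to 0.26 for Cfb, with the lowest Cfb value without Prep-/- M2 replicate 1. The M2 interaction of C3 gave -0.39 to 0.86, highest without Prep-/- M0 replicate 1, and the M1 interaction of C3ar1 gave -0.38 to 0.034.

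Among the genes described above, depth limited mainly Cfb and Cd55 outside M1, C8g, C4b and Vsig4, which rest on few counts in many libraries. C1s1, C2 and Cd59b, listed genes not called between the genotypes, also had few counts in many libraries.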
